A study of Mus musculus with 10 samples.

Results

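The genes described here encode the core transcription factors of adipocyte formation: Pparg, Cebpa, Cebpb, Cebpd, Rxra, Srebf1, Zfp423, Ebf1 and Stat5a. They were chosen by name, through the NCBI gene identifier of each row, and are 9 of the 18103 genes in the deposited count table. All 9 had a row, and all 9 passed the filter on low counts. Their levels were measured by RNA sequencing in 10 libraries from mouse breast cancer cell lines, 2 libraries for each of 5 groups, all harvested on day 7. Library totals ran from 14659987 to 17249199 counts.

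Py2T-LT cells are the long-term form of the mouse breast tumour line Py2T. There were control cells, cells given a MEK inhibitor, which blocks the kinase that activates ERK, and cells given both this inhibitor and BMP2, a bone morphogenetic protein. The other line, MTΔECad, is mesenchymal and also from mouse breast cancer. Its name marks a deletion of E-cadherin, which control and treated cells share, and it was sampled as controls and after rosiglitazone, a synthetic agonist of PPARγ. The protocol gives DMSO medium for controls and, as usual doses, 200 ng/ml BMP2, 40 µM PD98059 (the MEK inhibitor) and 2 µM rosiglitazone. The labels of the samples carry no dose. The same protocol adds rosiglitazone after BMP2 when cancer cells are differentiated, and the labels of the Py2T-LT samples do not name it, so its presence in their medium is not known here. Each line is a single cell line, so a difference between lines is a difference between these lines.

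Adipocyte formation is known to run as a cascade. C/EBPβ and C/EBPδ act early after the differentiation stimulus and switch on PPARγ and C/EBPα, which then maintain each other and activate the genes of the fat cell. PPARγ binds DNA as a dimer with a retinoid X receptor such as RXRα, and needs a ligand for full activity. SREBP-1, the product of Srebf1, drives fatty acid synthesis. Zfp423 and Ebf1 mark the commitment of precursor cells, and STAT5A carries growth hormone and prolactin signals and promotes fat cell formation.

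The labelled identity of the cells was checked first. Mesenchymal markers (6 genes) summed to 7980 to 16200 CPM (counts per 1e6 counts of the library, scaled by TMM) across the libraries, and epithelial markers (7 genes) to 283 to 688 CPM. Cdh1, the E-cadherin gene, was at 33.8 ± 3.04 CPM in the controls of Py2T-LT and at 2.41 ± 0.227 CPM in MTΔECad controls (SD, n = 2), without information on which exons these counts cover. Haematopoietic, endothelial and skeletal muscle markers that have a row (2 of 6, 4 of 5 and 1 of 5) summed to at most 7.17, 1.56 and 0.557 CPM in any library. The 5 mature adipocyte markers summed to 2.65 to 5.87 CPM in Py2T-LT controls, 168 to 202 CPM with the MEK inhibitor and 305 to 335 CPM with BMP2 added. In MTΔECad cells they summed to 22.5 to 25.8 CPM in controls and 1580 to 1770 CPM with rosiglitazone. In bulk RNA, a change in the share of cells that express a gene and a change in its RNA per cell cannot be told apart.

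The count table gives 1 value per gene and does not separate transcription starts. Windows of 250 bases before RefSeq starts (GRCm38.p6, the assembly of mm10) were available for 8 of the 9 genes, 16 windows in all. Each window was searched on both strands for the C/EBP letters TTGCNNAA, the nuclear receptor letters AGGTCA, the E-box CACGTG, the STAT letters TTCNNNGAA, the sterol response letters TCACNCCAC, the CCAAT box with those letters, the TATA box TATAAA, the Sp1 box GGGCGG and an EBF palindrome. The 4 windows below were picked after the search: the windows before Pparg and Zfp423 starts are the ones that hold the C/EBP letters, the Rxra window is the one with 2 copies of AGGTCA, and the Cebpa window is the only one listed for that gene. None holds an exon base. They run 5′ to 3′ on the gene's strand, and capitals mark matches to the searched letters other than GGGCGG.
Pparg, + strand, chr6:115421816-115422065: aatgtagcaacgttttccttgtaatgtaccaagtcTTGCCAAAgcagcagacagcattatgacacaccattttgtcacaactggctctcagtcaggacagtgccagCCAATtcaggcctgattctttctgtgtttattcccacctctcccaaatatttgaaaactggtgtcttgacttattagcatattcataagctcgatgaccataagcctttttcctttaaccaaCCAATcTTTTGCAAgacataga
Cebpa, + strand, chr7:35119043-35119292: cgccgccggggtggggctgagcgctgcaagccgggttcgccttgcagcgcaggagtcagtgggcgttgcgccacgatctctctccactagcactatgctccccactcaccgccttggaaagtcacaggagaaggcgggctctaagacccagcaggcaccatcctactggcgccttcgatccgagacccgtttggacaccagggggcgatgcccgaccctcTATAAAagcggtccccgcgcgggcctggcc
Rxra, + strand, chr2:27709042-27709291: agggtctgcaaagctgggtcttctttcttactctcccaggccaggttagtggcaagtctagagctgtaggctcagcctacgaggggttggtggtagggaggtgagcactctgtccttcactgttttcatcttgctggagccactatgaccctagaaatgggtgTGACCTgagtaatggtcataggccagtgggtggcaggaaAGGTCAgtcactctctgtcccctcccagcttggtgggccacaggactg
Zfp423, - strand, chr8:87959596-87959845: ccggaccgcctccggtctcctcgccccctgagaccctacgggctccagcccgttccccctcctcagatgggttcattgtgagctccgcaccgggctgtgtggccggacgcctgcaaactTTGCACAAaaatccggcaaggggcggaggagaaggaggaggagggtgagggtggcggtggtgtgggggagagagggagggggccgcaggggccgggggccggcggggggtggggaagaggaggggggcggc

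The Pparg window lies before the start of the transcript for PPARγ2, the longer and fat-enriched form of the protein. It holds the C/EBP letters at 215 and at 16 bases before the start, and CCAAT at 144 and 22 bases. Its GC content is 40.8%, against 82.4% before the outermost of the 3 Pparg starts and a median of 59.6% over 13188 windows of RefSeq genes. At least 1 match to the C/EBP letters occurs in 7.48% of those windows and at least 1 CCAAT in 35.6%. Windows with more than 1 match were not counted apart, for these or the other letters. The Zfp423 window also holds the C/EBP letters, 131 bases before the start. The Rxra window holds AGGTCA at 87 and 48 bases, and 10.6% of windows hold at least 1 copy. The Cebpa window holds TATAAA 30 bases before the start, found in 6.6%. Across the other 12 windows, AGGTCA was found before Pparg, Zfp423 and Stat5a starts, CCAAT before Pparg and Srebf1 starts, and TATAAA before a Pparg start. No window held the E-box, STAT, EBF or sterol response motif, which are found in 8.19%, 5.9%, 0.918% and 1% of all windows. Some windows not printed hold exon bases of the gene itself: 250, the whole window, before an Ebf1 start, 193 and 57 before Pparg starts and 175 and 139 before Stat5a starts. The window before Cebpb held 5 copies of GGGCGG, on a background of 57.2% of windows with at least 1, and none of the other letters. A match is only a match of letters, and no binding was measured.

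Levels between genes are compared per length of exon, as RPKM (CPM divided by exon length in kilobases). Cebpb and Srebf1 were the most abundant of the 9 in all 5 groups. Cebpb stood at 81 ± 7.49 RPKM in Py2T-LT controls and 144 ± 0.729 RPKM in MTΔECad cells with rosiglitazone, between the 97.2 and 98.5 percentile of 12553 tested genes with a length. Zfp423 was the least abundant in each group, from 0.0722 ± 0.0555 RPKM in Py2T-LT controls to 3.35 ± 0.201 RPKM with rosiglitazone. Pparg had the widest change of rank among genes: the 19.8 percentile in Py2T-LT controls, 39.8 with the MEK inhibitor, 58.5 with BMP2 added and 82.3 in MTΔECad controls. The fold between the highest and the lowest group mean in CPM was 46.4 for Zfp423, 19.2 for Pparg, 4.45 for Stat5a and 1.42 for Cebpd, the narrowest. The Zfp423 fold rests on 3 and 10 counts in the lowest group: the fitted log2 difference between these groups, 5.52, was 4.89 without Py2T-LT control replicate 1 and 6.61 without replicate 2. The length-scaled level of Cebpd depends on the annotation, since its exon length is 3746 bases in GENCODE M21 while the RefSeq gene runs from 15887286 to 15889545 on chromosome 16.

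**Figure D1:**
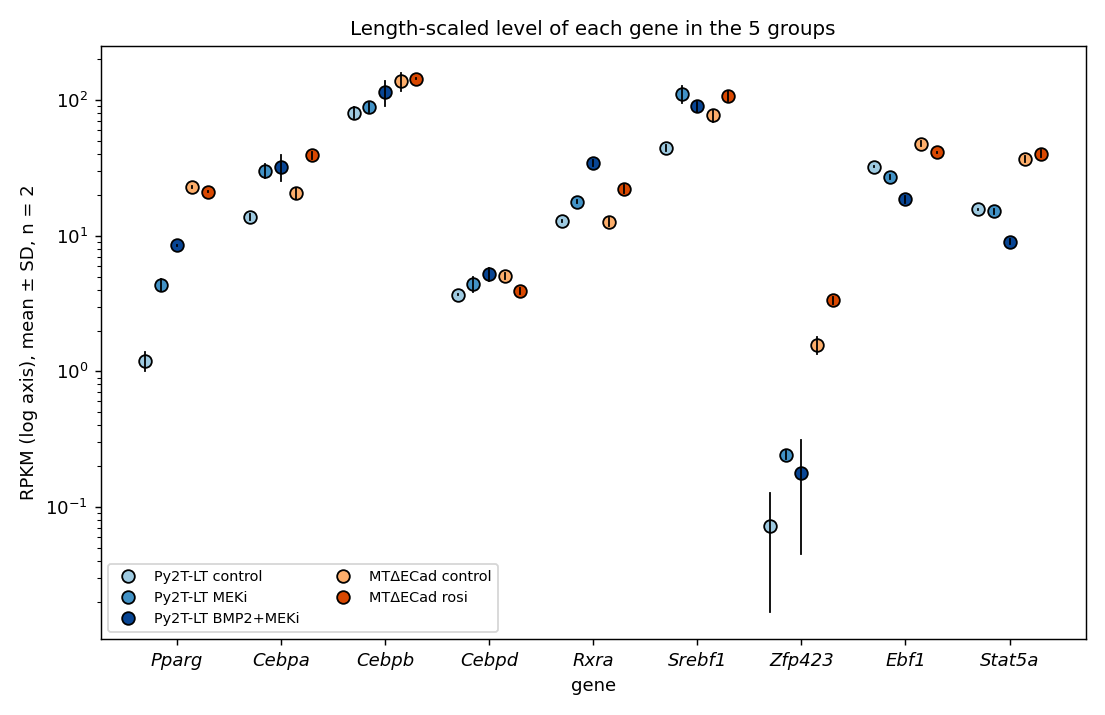
Length-scaled level of each of the 9 genes (RPKM, log axis) in the 5 groups, as mean ± SD of 2 libraries; MEKi is the MEK inhibitor and rosi is rosiglitazone. Cebpb and Srebf1 lie at the top in each group, Zfp423 at the bottom, and Pparg spans 1.2 to 23 RPKM.

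Pparg encodes the nuclear receptor PPARγ, without which fat cells do not form (NCBI Gene 19016, chromosome 6, 115360879 to 115490404, GRCm38). Its level was 3.14 and 3.94 CPM in the Py2T-LT controls, 12 and 13.9 CPM with the MEK inhibitor, and 25 and 25.1 CPM with BMP2 plus the inhibitor. In MTΔECad cells it was 68.8 and 67.3 CPM in controls and 63.2 and 61.8 CPM with rosiglitazone. The 5 groups did not overlap, and each MTΔECad library lay above each Py2T-LT library. Pparg rose 3.65-fold with the MEK inhibitor (log2 fold change 1.87 ± 0.15 SE; edgeR adjusted p = 9e-09) and 7.07-fold with BMP2 plus the inhibitor (2.82 ± 0.14; edgeR adjusted p = 6.6e-13). Adding BMP2 to the inhibitor raised it by a further 0.95 ± 0.11 on the log2 scale (edgeR adjusted p = 5.4e-07). Its level in MTΔECad controls was 19.2-fold that in Py2T-LT controls (4.26 ± 0.13; edgeR adjusted p = 6.3e-17).

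Rosiglitazone did not move the Pparg mRNA past the threshold. The log2 fold change was -0.12 ± 0.09 (edgeR adjusted p = 0.5), with a 95% interval from -0.32 to 0.07, so a rise as large as that of the Py2T-LT treatments lies outside the interval. In order of level, Py2T-LT controls, MEK inhibitor, BMP2 plus inhibitor and rosiglitazone differed from each neighbour, and the step from rosiglitazone to MTΔECad controls did not pass the test, although both control libraries lay above both treated ones.

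Rxra encodes RXRα, the dimer partner of PPARγ (NCBI Gene 20181, chromosome 2, 27676445 to 27763319). It stood at 71.6 and 69.5 CPM in Py2T-LT controls, 99 and 95.4 CPM with the MEK inhibitor and 180 and 193 CPM with BMP2 plus the inhibitor. MTΔECad controls held 72.3 and 65.5 CPM and rosiglitazone cells 127 and 116 CPM. The controls of the lines overlapped and were the lowest groups, and each treated group lay above both of them. Rxra rose with the MEK inhibitor (log2 fold change 0.46 ± 0.08; edgeR adjusted p = 0.00032), with BMP2 plus the inhibitor (1.4 ± 0.08; edgeR adjusted p = 1.2e-11) and with rosiglitazone (0.82 ± 0.08; edgeR adjusted p = 2e-07). The MTΔECad controls differed from the Py2T-LT controls by -0.03 ± 0.08 (edgeR adjusted p = 0.74), and Rxra was the exception among the 9 in that comparison. Without MTΔECad control replicate 2 this small difference turned to 0.04.

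The ratio of Pparg to Rxra mRNA per length was 0.0812 to 0.105 in Py2T-LT controls, 0.223 to 0.269 with the MEK inhibitor, 0.24 to 0.258 with BMP2 added, 1.76 to 1.9 in MTΔECad controls and 0.917 to 0.986 with rosiglitazone. Pparg RNA exceeded Rxra RNA per length in both MTΔECad control libraries and in no other library. The related receptor gene Rxrb held 33.1 ± 4.72 to 37.4 ± 3.35 CPM over the 5 groups and passed the test in none of the 6 comparisons. Rxrg had 0 counts in all 10 libraries, which allows up to 0.209 CPM.

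The C/EBP genes encode leucine zipper factors that act in sequence in the cascade. Cebpa, whose product sustains the differentiated state (NCBI Gene 12606, chromosome 7, 35119293 to 35121928), stood at 34.9 and 37.9 CPM in Py2T-LT controls, 86.3 and 73.5 CPM with the MEK inhibitor and 72.4 and 98.6 CPM with BMP2 plus the inhibitor. In MTΔECad cells it stood at 51 and 57.8 CPM in controls and 107 and 99.3 CPM with rosiglitazone. Each treated library lay above each control library of either line. Cebpa rose in 3 comparisons with a control: by 1.13 ± 0.13 with the MEK inhibitor (edgeR adjusted p = 2.3e-05), by 1.23 ± 0.13 with BMP2 plus the inhibitor (edgeR adjusted p = 2.2e-06) and by 0.92 ± 0.13 with rosiglitazone (edgeR adjusted p = 0.00013). BMP2 on top of the inhibitor gave 0.1 ± 0.13 (edgeR adjusted p = 0.57; 95% interval -0.17 to 0.37), and the value was below 0 when replicate 2 of BMP2 plus inhibitor (-0.14) or of the inhibitor (-0.01) was left out. In order of level, Py2T-LT controls, MTΔECad controls and the MEK inhibitor differed from each neighbour, while the steps from the MEK inhibitor to BMP2 plus inhibitor and on to rosiglitazone did not pass the test. The ends of that run did: Cebpa was higher with rosiglitazone than with the MEK inhibitor by 0.37 ± 0.12 (edgeR adjusted p = 0.018).

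Cebpb and Cebpd, the early factors, moved little with the treatments on day 7. No earlier day was sampled, so an early change that had passed by then would not be seen. Cebpb (NCBI Gene 12608, chromosome 2, 167688915 to 167690432) stood at 114 and 130 CPM in Py2T-LT controls, 140 and 126 CPM with the MEK inhibitor and 146 and 196 CPM with BMP2 plus the inhibitor. MTΔECad controls held 185 and 229 CPM and rosiglitazone cells 216 and 217 CPM. No pair of neighbours in the order of the 5 groups passed the test, although the ends of the order differed. The call with BMP2 plus the inhibitor (0.49 ± 0.14; edgeR adjusted p = 0.021) was lost without BMP2 plus MEK inhibitor replicate 2 (edgeR adjusted p = 0.11) or, in the controls, replicate 1 (edgeR adjusted p = 0.063). The value for Cebpb was 0.13 ± 0.14 with the MEK inhibitor and 0.06 ± 0.14 with rosiglitazone, neither past the threshold (edgeR adjusted p = 0.64 and 0.86), and the second was -0.08 without MTΔECad control replicate 1. The step from the inhibitor to BMP2 plus inhibitor, 0.36 ± 0.14 (edgeR adjusted p = 0.072), passed with DESeq2 (adjusted p = 0.018), with only the compared groups fitted (edgeR adjusted p = 0.00018), with no count filter (edgeR adjusted p = 0.00016) and without BMP2 plus MEK inhibitor replicate 1 (edgeR adjusted p = 0.002).

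Cebpd (NCBI Gene 12609, chromosome 16) stood at 13.9 and 13.7 CPM in Py2T-LT controls, 18.1 and 15 CPM with the MEK inhibitor and 18 and 21.1 CPM with BMP2 plus the inhibitor. MTΔECad controls held 19.7 and 18.3 CPM and rosiglitazone cells 15.3 and 14.2 CPM. No step between neighbours in its order passed the test either. It rose by 0.51 ± 0.13 with BMP2 plus the inhibitor (edgeR adjusted p = 0.0036; 0.066 without BMP2 plus MEK inhibitor replicate 2). With rosiglitazone the value was -0.36 ± 0.13 (edgeR adjusted p = 0.077), with both treated libraries below both controls. The exons of Cebpb, Cebpd and Cebpa overlap antisense genes over 312, 562 and 51 bases, as do those of Srebf1 and Stat5a over 109 and 72 bases, and the use of strand in counting is not given in the sources used here.

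The balance of late to early factor on day 7 was read as a ratio. Counts of Cebpa per count of Cebpb, which share a library and so need no scaling, were 0.292 to 0.307 in Py2T-LT controls, 0.582 to 0.616 with the MEK inhibitor and 0.497 to 0.503 with BMP2 added. In MTΔECad cells they were 0.252 to 0.276 in controls and 0.457 to 0.495 with rosiglitazone. Each control library lay below each treated library, and the MTΔECad controls lay below the Py2T-LT controls although Cebpa itself was higher there. Of the other family members, Cebpg, a partner of other C/EBP proteins, rose with BMP2 plus the inhibitor (0.38 ± 0.08; edgeR adjusted p = 0.00054) and with rosiglitazone (0.34 ± 0.08; edgeR adjusted p = 0.0041). Ddit3, whose product CHOP blocks C/EBP dimers, did not pass the test in these comparisons, with 0.06 ± 0.16 and 0.16 ± 0.16 (edgeR adjusted p = 0.8 and 0.65).

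**Figure D2:**
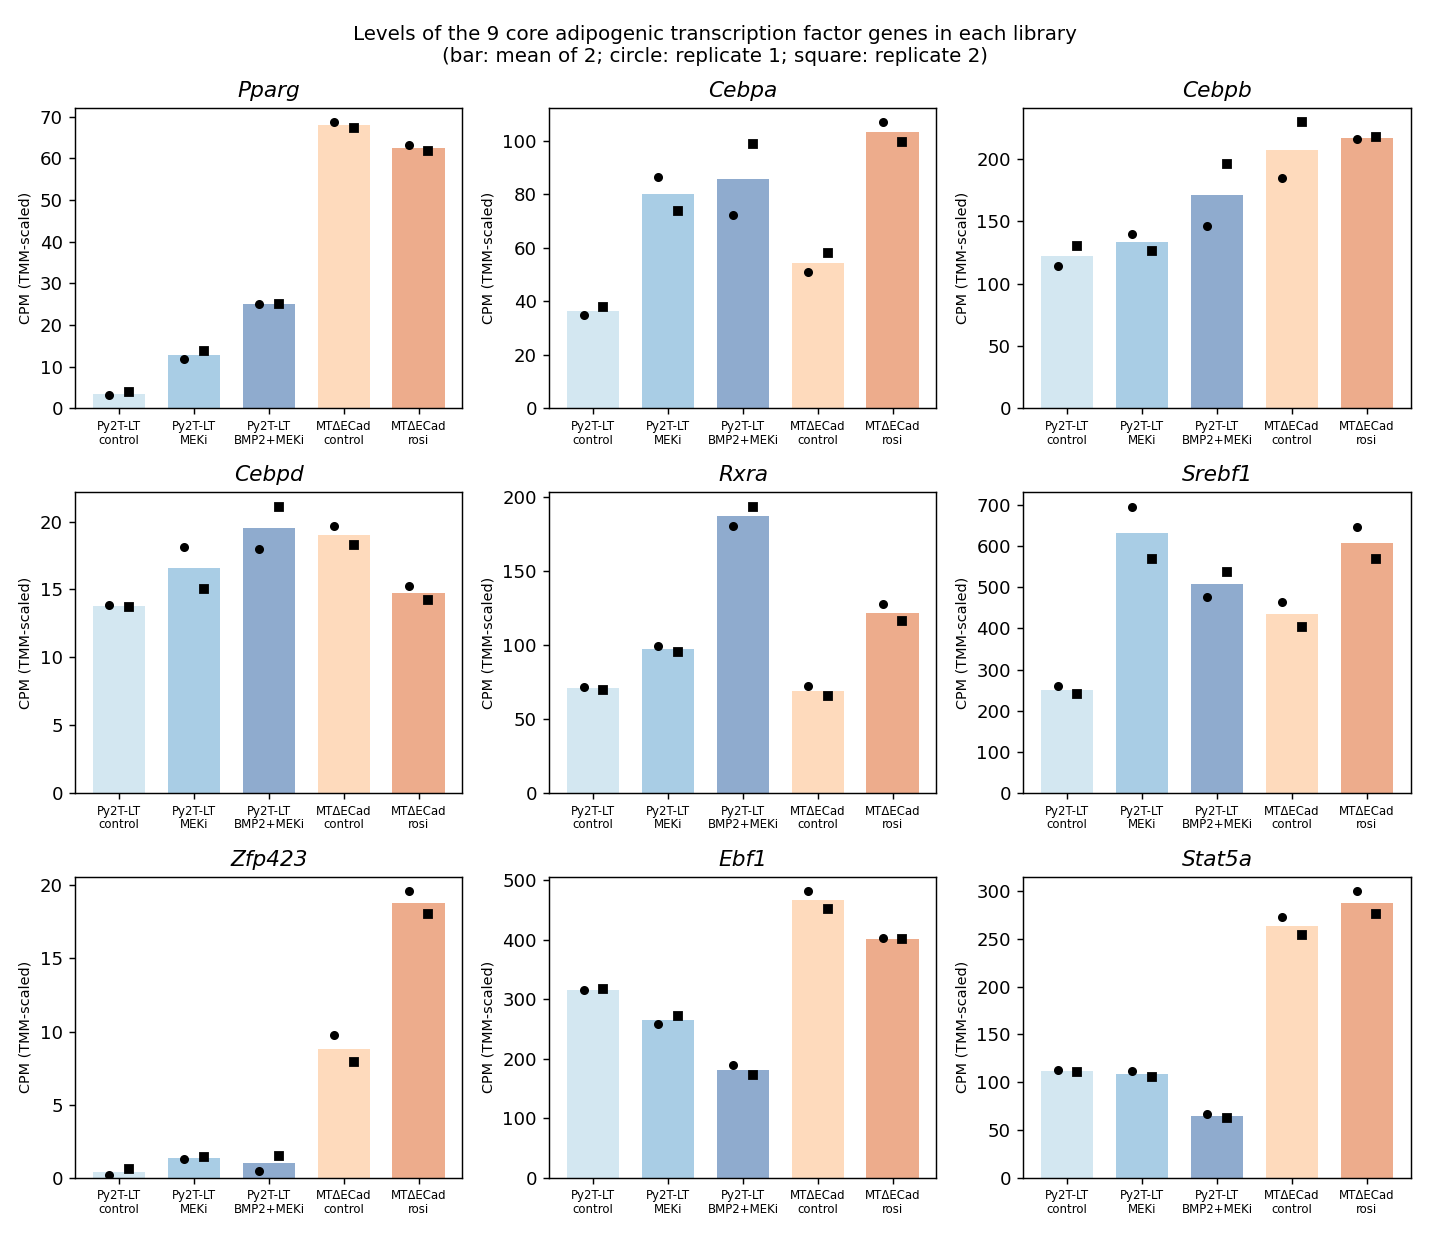
Level of each of the 9 genes in CPM (TMM-scaled, axes from 0) in the 5 groups; bars are means of 2 libraries, circles replicate 1 and squares replicate 2, MEKi is the MEK inhibitor and rosi is rosiglitazone. Pparg steps up from 3.54 to 25.1 CPM over the Py2T-LT groups and stands at 68 and 62.5 CPM in MTΔECad cells, whereas Cebpa, Rxra and Srebf1 are higher in each treated group than in its control.

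Srebf1 encodes SREBP-1, the activator of fatty acid synthesis genes (NCBI Gene 20787, chromosome 11, minus strand, 60199084 to 60224186). It stood at 261 and 241 CPM in Py2T-LT controls, 696 and 569 CPM with the MEK inhibitor and 476 and 538 CPM with BMP2 plus the inhibitor. In MTΔECad cells it stood at 465 and 404 CPM in controls and 645 and 569 CPM with rosiglitazone. The MEK inhibitor libraries lay above both BMP2 plus inhibitor libraries. Srebf1 rose by 1.33 ± 0.1 with the MEK inhibitor (edgeR adjusted p = 7.9e-08) and by 1.02 ± 0.1 with BMP2 plus the inhibitor (edgeR adjusted p = 3.6e-07). The fall on adding BMP2 to the inhibitor, -0.32 ± 0.1 (edgeR adjusted p = 0.02), was lost without MEK inhibitor replicate 1 (edgeR adjusted p = 0.28) and without BMP2 plus MEK inhibitor replicate 1 (edgeR adjusted p = 0.18). Rosiglitazone raised it by 0.48 ± 0.1 (edgeR adjusted p = 0.0032; 0.062 without MTΔECad control replicate 2).

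The order of Srebf1 ran from Py2T-LT controls through MTΔECad controls, BMP2 plus inhibitor and rosiglitazone to the MEK inhibitor, and the neighbours whose step did not pass the test were MTΔECad controls with BMP2 plus inhibitor and rosiglitazone with the MEK inhibitor. Its paralog Srebf2, which drives cholesterol synthesis, passed the test in none of the comparisons with a control and rose by 0.34 ± 0.12 on adding BMP2 to the inhibitor (edgeR adjusted p = 0.032). Srebf1 exceeded Srebf2 per length by 5.04 to 6.47 times in Py2T-LT controls and by 16.8 to 19 times with the MEK inhibitor.

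Zfp423 encodes a zinc finger factor of committed fat cell precursors (NCBI Gene 94187, chromosome 8, minus strand, 87661810 to 87962053). Its counts were 3 and 10 in Py2T-LT controls, 20 and 26 with the MEK inhibitor and 7 and 26 with BMP2 plus the inhibitor, at most 1.51 CPM. MTΔECad controls held 140 and 126 counts (9.74 and 7.89 CPM) and rosiglitazone cells 299 and 262 counts (19.6 and 18 CPM). Each MTΔECad library lay above each Py2T-LT library, and the rosiglitazone libraries above both controls. Rosiglitazone raised Zfp423 2.14-fold (1.1 ± 0.21; edgeR adjusted p = 8e-04). MTΔECad controls held 21.7 times the Py2T-LT control level by pooled counts, with an exact 95% counting interval of 12.5 to 41.4 that covers counting error only. The fitted log2 difference of 4.42 was 3.8 without Py2T-LT control replicate 1 and 5.51 without replicate 2.

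Within the Py2T-LT groups the Zfp423 calls rested on few counts. The rise with the MEK inhibitor (1.74 ± 0.52; edgeR adjusted p = 0.025) was lost without control replicate 1 (edgeR adjusted p = 0.19), inhibitor replicate 1 (edgeR adjusted p = 0.079) or inhibitor replicate 2 (edgeR adjusted p = 0.14). With BMP2 plus the inhibitor the value was 1.32 ± 0.55 (edgeR adjusted p = 0.068), which passed with DESeq2 (adjusted p = 0.048) and with no count filter (edgeR adjusted p = 0.011). It also passed without BMP2 plus MEK inhibitor replicate 1 (edgeR adjusted p = 0.0079) or Py2T-LT control replicate 2 (edgeR adjusted p = 0.019), and its leave-one-out values ran from 0.21 to 2.42. The step from the inhibitor to BMP2 plus inhibitor, -0.41 ± 0.42 (edgeR adjusted p = 0.48), was 0.14 when BMP2 plus inhibitor replicate 1 was left out and -1.52 when its replicate 2 was (edgeR adjusted p = 0.044). Zfp521, a paralog known to oppose fat cell commitment, held 2.45 ± 0.37 CPM in Py2T-LT controls, 9.01 ± 0.0443 CPM with the MEK inhibitor and 2.57 ± 0.433 CPM with BMP2 added. It rose by 1.88 ± 0.21 with the inhibitor (edgeR adjusted p = 1.7e-06) and fell by 1.81 ± 0.21 on adding BMP2 (edgeR adjusted p = 5.5e-07), both inhibitor libraries lying above both others.

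Ebf1 encodes an early B cell factor that acts in fat precursors (NCBI Gene 13591, chromosome 11, 44618100 to 45008096). It stood at 315 and 317 CPM in Py2T-LT controls, 259 and 272 CPM with the MEK inhibitor and 189 and 173 CPM with BMP2 plus the inhibitor. MTΔECad controls held 482 and 452 CPM and rosiglitazone cells 403 and 401 CPM. The groups did not overlap, and each treated group lay below its own control. Ebf1 fell by 0.8 ± 0.07 with BMP2 plus the inhibitor (edgeR adjusted p = 1.5e-08) and by 0.55 ± 0.07 on adding BMP2 to the inhibitor (edgeR adjusted p = 3.6e-06). The change with the MEK inhibitor alone was small, -0.25 ± 0.07 (edgeR adjusted p = 0.019), and did not pass without control replicate 1 (edgeR adjusted p = 0.057), control replicate 2 (edgeR adjusted p = 0.088) or inhibitor replicate 1 (edgeR adjusted p = 0.15). With rosiglitazone the value was -0.22 ± 0.07 (edgeR adjusted p = 0.054), and with the replicate number as a block it passed (edgeR adjusted p = 0.049). In order of level, each of the other steps between neighbours passed the test. Ebf2, a brown fat relative, had 37 counts with BMP2 plus the inhibitor and 1 in Py2T-LT controls, a ratio of 37.1 with an exact 95% counting interval of 6.26 to 1500, and 0 counts in the 4 MTΔECad libraries.

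Stat5a encodes a signal transducer activated by growth hormone and prolactin (NCBI Gene 20850, chromosome 11, 100859351 to 100885169). It stood at 112 and 111 CPM in Py2T-LT controls, 112 and 105 CPM with the MEK inhibitor and 66.5 and 62.9 CPM with BMP2 plus the inhibitor. MTΔECad controls held 273 and 254 CPM and rosiglitazone cells 300.2 and 276 CPM. The controls and the MEK inhibitor group overlapped, and both BMP2 plus inhibitor libraries lay below them. Stat5a fell by 0.79 ± 0.08 with BMP2 plus the inhibitor (edgeR adjusted p = 6.2e-08) and by 0.75 ± 0.08 on adding BMP2 to the inhibitor (edgeR adjusted p = 1.4e-07). With the MEK inhibitor the value was -0.04 ± 0.08 (edgeR adjusted p = 0.8; 0 without MEK inhibitor replicate 2) and with rosiglitazone 0.13 ± 0.07 (edgeR adjusted p = 0.34). The neighbours whose step did not pass the test were the MEK inhibitor with Py2T-LT controls and MTΔECad controls with rosiglitazone.

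Stat5b, the near-identical neighbour gene, fell as well on adding BMP2 to the inhibitor, by 0.5 ± 0.08 (edgeR adjusted p = 3.6e-05). Reads shared by the pair could be split between them in counting, so the ratio of Stat5a to Stat5b per length, 0.934 to 0.952 in Py2T-LT controls, 0.803 to 0.852 with BMP2 plus inhibitor and 1.48 to 1.54 with rosiglitazone, is uncertain.

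Across the set, MEK inhibition changed 6 of the 9 genes in Py2T-LT cells: Pparg, Cebpa, Rxra, Srebf1 and Zfp423 rose and Ebf1 fell. Of the 13149 genes tested, 16.5% changed in this comparison (8.98% rose and 7.52% fell). The median log2 fold change of the 9 was 0.46, beside 0.01 over all genes tested. BMP2 plus the inhibitor changed 8 against controls, where 38.5% of tested genes changed (19.1% rose and 19.4% fell). Pparg, Cebpa, Cebpb, Cebpd, Rxra and Srebf1 rose and Ebf1 and Stat5a fell, with a median of 1.02 beside 0. These comparisons share the Py2T-LT control libraries. The step from the inhibitor to BMP2 plus inhibitor changed 5 of 9 on a background of 37.3% (17.9% up, 19.4% down): Pparg and Rxra rose while Srebf1, Ebf1 and Stat5a fell, with a median of 0.1 beside 0.01.

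In MTΔECad cells rosiglitazone changed 4 of the 9, all upward: Cebpa, Rxra, Srebf1 and Zfp423. Over all genes 13.2% changed (7.95% rose and 5.26% fell), and the medians were 0.13 for the 9 and -0.02 for all genes. Between the control groups 8 of the 9 were higher in MTΔECad than in Py2T-LT cells, where 61% of all genes differed, 29.3% higher and 31.7% lower, with medians of 0.77 and -0.03. Besides Pparg and Zfp423, the differences were 1.24 ± 0.08 for Stat5a, 0.79 ± 0.1 for Srebf1, 0.77 ± 0.14 for Cebpb, 0.58 ± 0.13 for Cebpa, 0.56 ± 0.07 for Ebf1 and 0.46 ± 0.13 for Cebpd, with edgeR adjusted p from 1.2e-11 for Stat5a to 0.0046 for Cebpd. Beside these comparisons stand the mature adipocyte markers given above, whose sum was higher in each treated group than in its control. Adipoq, Fabp4, Plin1 and Cidec were each higher in the treated groups, and Fabp4 made up most of the sum (1070 CPM with rosiglitazone). Lep was not: it had 0 counts in the Py2T-LT groups and held 6.64 ± 0.451 CPM in MTΔECad controls and 5.55 ± 1.05 CPM with rosiglitazone. Epithelial markers summed to 637 to 688 CPM in Py2T-LT controls, 588 to 672 CPM with the MEK inhibitor and 311 to 333 CPM with BMP2 added, and to 283 to 293 CPM in MTΔECad controls and 418 to 462 CPM with rosiglitazone. Mesenchymal markers summed to 7980 to 10800, 8010 to 8380, 9430 to 10100, 13600 to 16200 and 10200 to 10600 CPM in the same order of groups. The genes under these sums did not move together. From Py2T-LT controls to BMP2 plus inhibitor, Krt14 went from 10.1 to 97.5 CPM, Krt8 from 219 to 43 CPM and Krt18 from 389 to 157 CPM. Cdh1 went from 33.8 to 11.8 CPM with the MEK inhibitor. From MTΔECad controls to rosiglitazone, Fn1 went from 8610 to 4690 CPM, while Zeb1 (187 and 186 CPM) and Twist1 (47.8 and 50.3 CPM) stayed close. The part of these marker levels in the values of the 9 genes was not tested.

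The remaining pairs of groups, added after seeing the data, served to order the levels across lines. MTΔECad controls differed from the MEK inhibitor group in 8 of the 9 genes (61.6% of all genes) and from the BMP2 plus inhibitor group in 6 (62.4%). The rosiglitazone group differed from Py2T-LT controls in 8 (63.6%), from the MEK inhibitor group in 7 (63.5%) and from the BMP2 plus inhibitor group in 7 (63.4%). Against these backgrounds most genes differ between the lines.

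**Figure D3:**
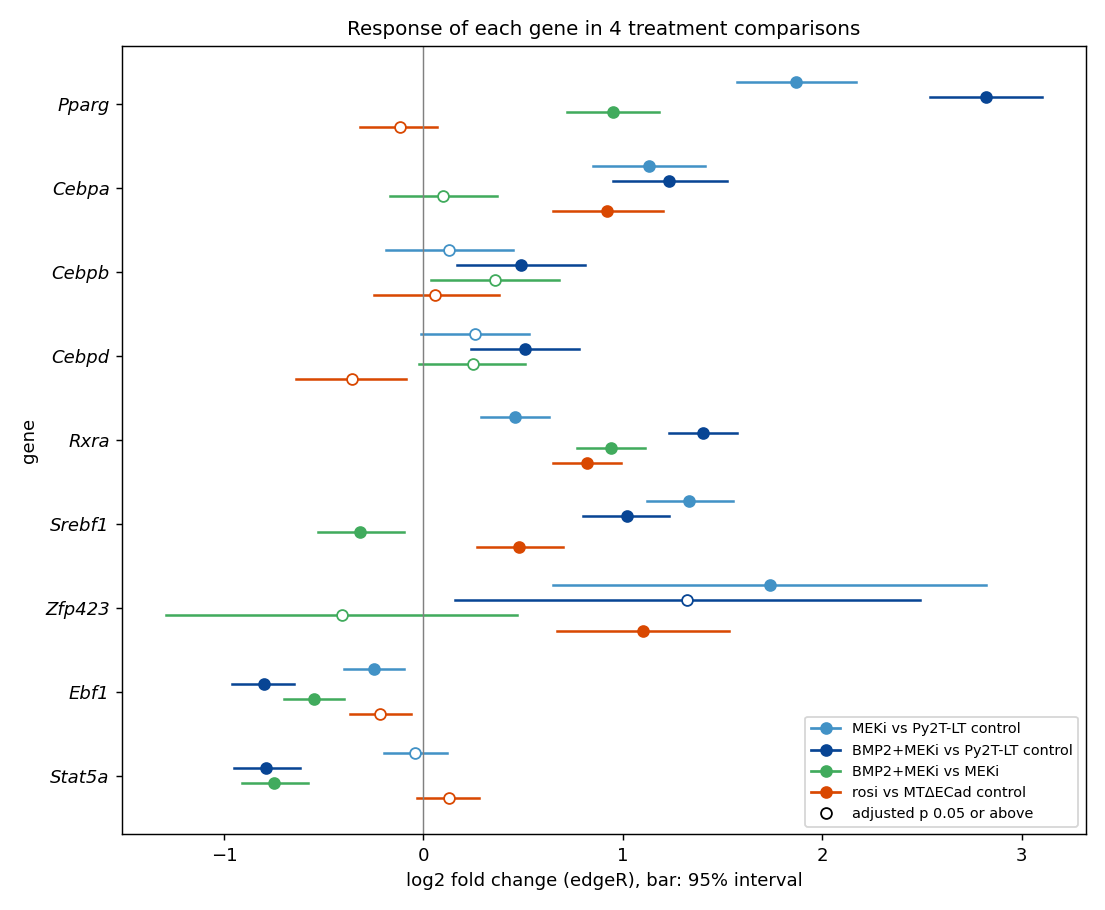
Log2 fold change of each of the 9 genes in 4 treatment comparisons, with 95% intervals from edgeR; open circles did not reach the threshold of 0.05, MEKi is the MEK inhibitor and rosi is rosiglitazone. Pparg lies at 1.87 and 2.82 in the Py2T-LT comparisons with controls and at -0.12 with rosiglitazone, while Ebf1 lies below 0 in all 4.

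The response to rosiglitazone in MTΔECad cells was set against the response to BMP2 plus inhibitor in Py2T-LT cells in 1 contrast over the 4 groups. The agents and the lines both differ, and their parts cannot be told apart. Of the 9 genes 6 differed in response, 2 upward and 4 downward, where 24.8% of all genes did (13.3% and 11.6%). Pparg had the largest size of difference among the 9, -2.94 ± 0.17 (edgeR adjusted p = 3.5e-11), and Stat5a (0.92 ± 0.11; edgeR adjusted p = 1.6e-06) and Ebf1 (0.59 ± 0.1; edgeR adjusted p = 0.00018) were the ones with the higher response in MTΔECad cells. The response of Cebpa differed by -0.31 ± 0.18 (edgeR adjusted p = 0.25), with a 95% interval from -0.71 to 0.08.

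The genes around these factors were read through 8 lists written for this tissue programme, chosen with earlier results of these data known. PPARγ and fat cell targets (22 tested of 23) mostly passed the test upward: 17 rose and 0 fell with the MEK inhibitor, 20 rose and 0 fell with BMP2 plus inhibitor, and 19 rose and 0 fell with rosiglitazone, with medians of 1.2, 1.94 and 3.03. The backgrounds of rising genes were 8.98%, 19.1% and 7.95%. With genes at 0 counts in the control set at their lower bound, and genes at or under the floor in both groups left out, the medians were 1.21, 2.06 and 2.91. Adipoq, the adiponectin gene, held 0.281 ± 0.31 CPM in Py2T-LT controls and 24.4 ± 2.35 CPM with the MEK inhibitor. In MTΔECad cells it had 1 count in controls and 2857 with rosiglitazone, a ratio of 2910 with an exact 95% counting interval of 522 to 115000. Plin1, a lipid droplet coat gene, held 0.28 CPM in Py2T-LT controls and 32.8 CPM with BMP2 plus inhibitor, and Cd36, a fatty acid transporter, rose by 6.73 ± 0.19 (edgeR adjusted p = 1.1e-15). On adding BMP2 to the inhibitor 14 targets rose and 1 fell (68.2%, beside 37.3% of all genes, of which 17.9% up and 19.4% down). The one that fell was Cfd, by 1.11 ± 0.3 (edgeR adjusted p = 0.0055).

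The level of Pparg and that of the listed PPARγ and fat cell targets were ordered differently in the lines. The mean log2 CPM of the 22 targets was 1.61 and 1.84 in Py2T-LT controls, 3.85 and 3.69 with the MEK inhibitor and 4.34 and 4.31 with BMP2 added, the same order as Pparg. In MTΔECad controls, which held the highest Pparg mRNA of the 5 groups, it was 2.58 and 2.38, below both treated Py2T-LT groups, and with rosiglitazone it was 6.61 and 6.36 at similar Pparg mRNA. Between the control groups 10 targets were higher in MTΔECad cells and 2 lower (54.5%, beside 61% of all genes). Plin4, another droplet coat gene, was higher by 4.99 ± 0.1 (edgeR adjusted p = 9.9e-20). Lep, the leptin gene, had 0 counts in all 6 Py2T-LT libraries and 201 in MTΔECad controls, at least 35.7-fold higher against a floor of 3 counts per library. Its mean was not higher with rosiglitazone (5.55 ± 1.05 CPM) than in MTΔECad controls (6.64 ± 0.451 CPM).

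**Figure D4:**
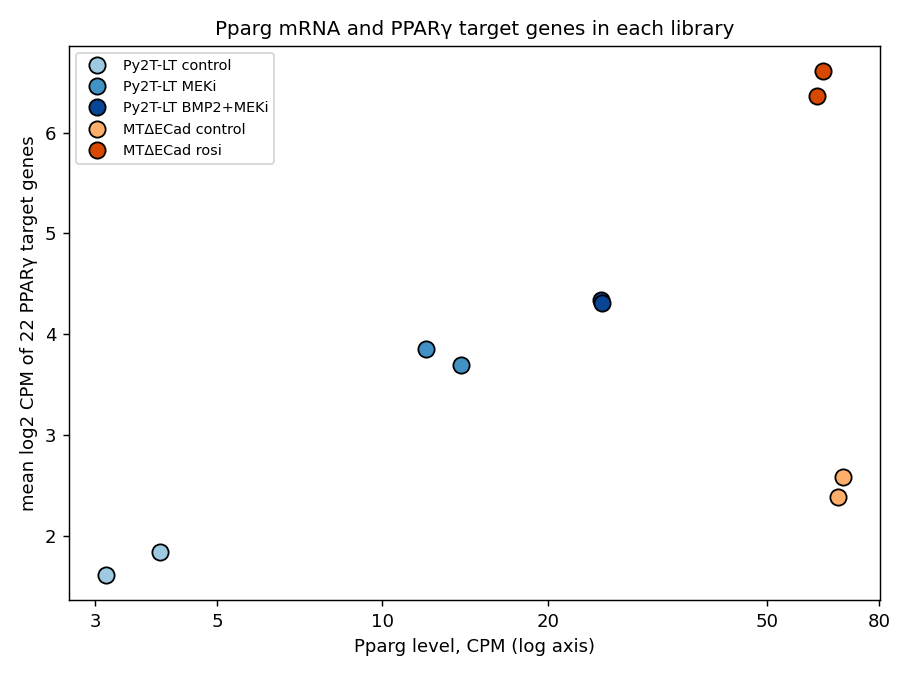
Pparg level (CPM, log axis) against the mean log2 CPM of 22 PPARγ target genes, 1 point per library. The MTΔECad controls lie at 67.3 to 68.8 CPM of Pparg with a target mean of 2.38 to 2.58, and rosiglitazone libraries at 61.8 to 63.2 CPM with 6.36 to 6.61.

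Partners and coregulators of PPARγ and RXR (16 tested of 17) gave 2 that rose and 1 that fell with BMP2 plus inhibitor, and 2 that rose and 3 that fell with the MEK inhibitor. These are 18.8% and 31.2% of the list, beside 38.5% and 16.5% of all genes. With rosiglitazone 5 rose and 0 fell (31.2%, beside 13.2% of all genes), led by the coactivators Ppargc1a (1.33 ± 0.15; edgeR adjusted p = 1.5e-06) and Ppargc1b (1.29 ± 0.17; edgeR adjusted p = 1.4e-05) and by Nrip1, a corepressor (0.61 ± 0.1; edgeR adjusted p = 0.00021). Ncoa3, a steroid receptor coactivator, fell by 1.19 ± 0.1 with BMP2 plus inhibitor (edgeR adjusted p = 2.7e-09). Ppara, the fatty acid oxidation receptor, had 0 counts in Py2T-LT controls and 39 with the MEK inhibitor, at least 6.4-fold higher, and 99 with BMP2 plus inhibitor, at least 16.7-fold higher. Ppard fell by 0.6 ± 0.16 with the inhibitor (edgeR adjusted p = 0.011) and rose by 0.6 ± 0.16 on adding BMP2 (edgeR adjusted p = 0.0053).

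The SREBP list (19 tested of 19) covers processing proteins and lipogenic targets. With the MEK inhibitor 5 rose and 3 fell, with BMP2 plus inhibitor 9 rose and 3 fell, and with rosiglitazone 6 rose and 2 fell. The shares called were 42.1%, 63.2% and 42.1%, beside 16.5%, 38.5% and 13.2% of all genes. The median log2 fold changes of the list were small, 0.05, 0.07 and 0.06, beside 0.01, 0 and -0.02 over all genes. Scd1, a fatty acid desaturase, rose in each: by 0.69 ± 0.09, 1.7 ± 0.09 and 0.75 ± 0.08 (edgeR adjusted p = 5.1e-06, 1.6e-12 and 1.4e-06). On adding BMP2 to the inhibitor 9 rose and 1 fell (52.6%, beside 37.3% of all genes), and Scd1 rose by 1.01 ± 0.09 (edgeR adjusted p = 4.9e-09). Srebf1 itself stood at -0.32 ± 0.1 in that step, a fall that depended on single libraries (leave-one-out values -0.46 to -0.16). Fasn, the fatty acid synthase, rose by 1.27 ± 0.08 with rosiglitazone (edgeR adjusted p = 1.7e-10), and Insig1, which holds SREBP in the endoplasmic reticulum, by 0.59 ± 0.08 with the MEK inhibitor (edgeR adjusted p = 1.1e-05). Elovl6 was lower with rosiglitazone (70.5 ± 4.5 CPM) than in MTΔECad controls (96.4 ± 1.31 CPM).

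Of 11 tested C/EBP relatives and regulators (13 listed), 1 (9.09%, beside 16.5% of all genes) rose with the MEK inhibitor, Nr3c1, the glucocorticoid receptor gene (0.61 ± 0.08; edgeR adjusted p = 9.9e-06). With BMP2 plus inhibitor 2 rose and 3 fell (45.5%, beside 38.5%), led by Egr2, an early inducer of Cebpb, which fell by 2.02 ± 0.25 (edgeR adjusted p = 5.7e-06). Of 6 tested commitment genes (10 listed), 3 rose and 0 fell with the MEK inhibitor (50%, beside 16.5% of all genes): Pdgfra, a precursor cell receptor (1.18 ± 0.08; edgeR adjusted p = 1.1e-09), Pdgfrb, and Zfp521, which opposes commitment. With BMP2 plus inhibitor against controls 3 rose and 1 fell (66.7%, beside 38.5%), the latter Pdgfrb, by 0.96 ± 0.08 (edgeR adjusted p = 2e-09). On adding BMP2 to the inhibitor 3 rose and 3 fell (all 6, beside 37.3%). With rosiglitazone 0 of these 6 passed edgeR's test, and 0 had an unadjusted p under 0.05.

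In the STAT5 list (12 tested of 12), 2 rose and 3 fell with the MEK inhibitor (41.7%, beside 16.5% of all genes). With BMP2 plus inhibitor 4 rose and 6 fell (83.3%, beside 38.5%, of which 19.1% up and 19.4% down). Jak2, the kinase that activates STAT5, rose by 1.03 ± 0.08 (edgeR adjusted p = 2.5e-09) and Lifr, a cytokine receptor gene, by 2.5 ± 0.1 (edgeR adjusted p = 4.4e-14) where Stat5a fell. Other genes were lower than in Py2T-LT controls, as Stat5a was. Among them were Ghr, the growth hormone receptor gene (287 to 175 CPM), Cish (6.01 to 3.53 CPM), Socs2 (118 to 73.4 CPM) and Bcl6 (47.6 to 29.9 CPM). With rosiglitazone 4 rose and 0 fell (33.3%, beside 13.2%), among them Igf1, a growth factor, by 1.29 ± 0.09 (edgeR adjusted p = 1.2e-09) and Cish, a STAT5 target, by 0.71 ± 0.18 (edgeR adjusted p = 0.0085).

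Among 9 other pro-adipogenic factors (10 listed), 1 rose and 1 fell with the MEK inhibitor, 3 rose and 2 fell with BMP2 plus inhibitor, and 1 rose and 2 fell with rosiglitazone. The shares called were 22.2%, 55.6% and 33.3%, beside 16.5%, 38.5% and 13.2% of all genes. Nr1h3, the gene of the oxysterol receptor LXRα, was the gene that rose in each: by 2.1 ± 0.38, 3.28 ± 0.33 and 2.31 ± 0.19 (edgeR adjusted p = 0.00049, 6.6e-08 and 1e-08). The medians of these 9 genes were -0.06, -0.07 and -0.07. Klf15 went down with BMP2 plus inhibitor (-2.32 ± 0.37; edgeR adjusted p = 3e-05). With rosiglitazone the genes that fell were Klf9 (-0.38 ± 0.07; edgeR adjusted p = 0.00098) and Bhlhe40 (-0.34 ± 0.1; edgeR adjusted p = 0.019). Among 15 tested anti-adipogenic factors (17 listed), 1 (6.67%, beside 16.5%) rose with the MEK inhibitor, Zfp521. With BMP2 plus inhibitor 6 rose and 2 fell (53.3%, beside 38.5%), led by Gata2 (1.61 ± 0.27; edgeR adjusted p = 6.7e-05), Runx2, the bone master regulator (1.39 ± 0.14; edgeR adjusted p = 2.2e-07), and Hes1, a Notch target (1.29 ± 0.22; edgeR adjusted p = 0.0015). With rosiglitazone 1 rose and 0 fell (6.67%, beside 13.2%).

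**Figure D5:**
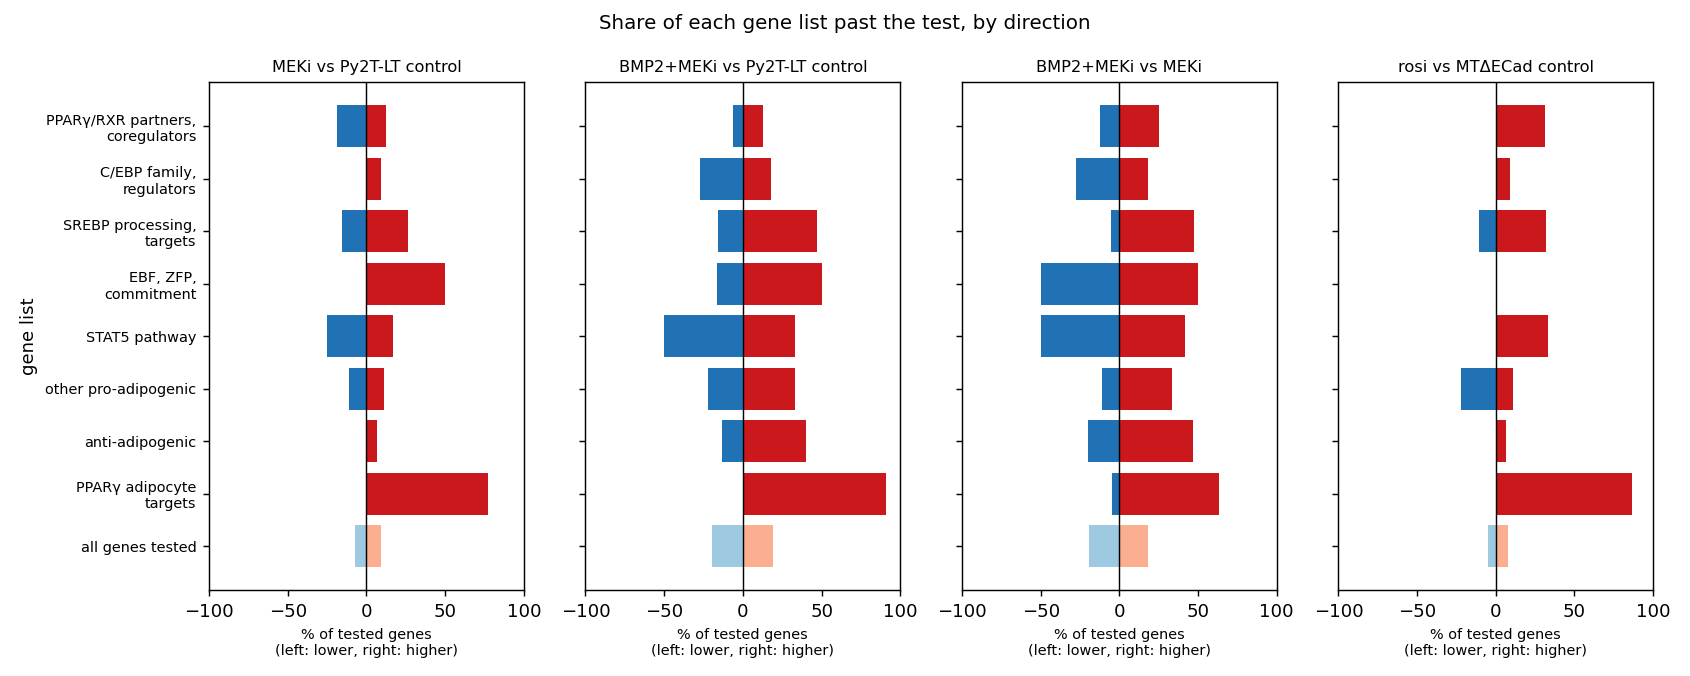
Share of the tested genes of each list that rose (right) or fell (left) at the threshold in 4 treatment comparisons, with all 13149 tested genes at the bottom; MEKi is the MEK inhibitor and rosi is rosiglitazone. PPARγ targets reach 77.3% with the MEK inhibitor, 90.9% with BMP2 plus inhibitor and 86.4% with rosiglitazone, all of it upward.

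Likeness of pattern was measured over the 10 libraries as the root mean square difference between centred log2 profiles, and is a description with no test. Among the 9 genes the closest pair was Cebpa and Srebf1 at 0.222, followed by Cebpb and Cebpd at 0.335, Cebpa and Rxra at 0.395 and Ebf1 and Stat5a at 0.403. Pparg lay closest to Zfp423, at 1.02. Over all tested genes with a symbol, the nearest to Pparg were Boc (0.331), Eya4 and Myoc, and the nearest to Zfp423 were Pipox (0.563), Rtl8a and Denn2b. Rxra lay nearest to Fzd5 (0.14), Lrrc51 and Naaa, and Cebpa nearest to Srebf1, Phyh and Niban1. Srebf1 lay nearest to Niban1 (0.214), Cebpa and Rgs2. Ebf1 lay nearest to Ahnak (0.0838), Erap1 and Myadm, and Stat5a to Plekho2 (0.104), Nedd4l and Pcdh18. Cebpb and Cebpd have narrow profiles themselves, with an SD over libraries of 0.375 and 0.224 on the log2 scale. Cebpb lay 0.11 from Rcl1, ahead of Tmem42 and Creb3, and Cebpd 0.097 from Rnf135, ahead of Ift22 and Tfg.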

How the data were processed

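Gene counts from 10 libraries were used. Per the labels' protocols, RNA came from 2 independent experiments and libraries from a stranded total RNA kit. The authors deposited whole-number read counts per NCBI gene identifier, and per the submitters' processing notes reads were aligned with STAR to mm10. For the STAR version, the counter, its strand setting and the annotation, nothing was given in the sources used here. Identifiers were matched to RefSeq (GRCm38.p6, 18057 of 18103 genes) and exon lengths taken from GENCODE M21 (16345 genes).

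The counts went into edgeR 4.0.16 (R 4.3.3): filterByExpr (13149 genes kept), TMM scaling, a robust quasi-likelihood fit with 1 mean for each of the 5 groups over all 10 libraries (5 residual degrees of freedom) and glmQLFTest, with Benjamini-Hochberg adjustment over all genes tested and a threshold of 0.05. A gene is said to rise, fall or change where it passed. The biological coefficient of variation was 7.07%. Library totals of 14659987 to 17249199 make 1 count worth at most 0.07 CPM and 3 counts, taken as the floor for 0 counts, at most 0.209 CPM. Replicates differed by more than counting noise (chi-square per gene 5.27 to 16.4). With 2 libraries a group, the p-values rest on a spread between replicates that was pooled over the 5 groups and partly shared across genes. They do not measure the spread within the compared groups alone. Intervals on counts are exact and cover counting error only. On simulated data for the MEK inhibitor comparison (13149 genes), 94% of changes of 1 and 97% of changes of 2 on the log2 scale were recovered, with 5.45% false among the calls. Each size was given to 100 genes above 1 CPM in Py2T-LT controls, and the other groups were simulated alike. These rates do not cover smaller changes, genes with fewer counts or comparisons where many more genes change.

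The 9 genes, the 8 lists (119 genes: PPARγ/RXR partners, C/EBP relatives, SREBP, EBF and ZFP commitment factors, STAT5, other pro-adipogenic factors, anti-adipogenic factors, PPARγ targets; Zfp521 and Ddit3 stand in 2 lists) and the tests were chosen with earlier results of these data known. Named besides the 9 genes are up to 3 genes a list and comparison, those with the largest change among genes that passed, paralogs of the 9, and the 3 genes nearest in pattern. Alternatives were RLE size factors, no count filter, DESeq2 1.42.0, fitting the compared groups only, a replicate block and leaving out each library. The remaining pairs of groups, added to order the levels, were chosen after seeing the data.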

Additional observations from a re-analysis of the deposited data

Results flagged for a closer look

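The responses of 6 of the 9 genes differed between MTΔECad cells with rosiglitazone and Py2T-LT cells with BMP2 plus MEK inhibitor, by a test of the difference itself (edgeR, adjusted over all genes; 24.8% of tested genes passed). The log2 difference of the responses was -2.94 for Pparg, -0.87 for Cebpd, -0.58 for Rxra, -0.54 for Srebf1, 0.59 for Ebf1 and 0.92 for Stat5a. Pparg rose by 2.82 in Py2T-LT cells and stood at -0.12 with rosiglitazone. Cebpd was 0.51 and -0.36, Rxra 1.4 and 0.82, and Srebf1 1.02 and 0.48 in the same order, whereas Ebf1 was -0.8 and -0.22 and Stat5a -0.79 and 0.13. The Srebf1 difference did not pass without BMP2 plus MEK inhibitor replicate 2 (edgeR adjusted p = 0.06) or MTΔECad control replicate 1 (edgeR adjusted p = 0.059). Line and agent differ together and cannot be told apart.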

How the results depend on the processing

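Of 521 values of the 54 planned results (9 genes in 6 comparisons) under the alternatives, 484 kept their direction and side of the threshold, 14 lost and 15 gained a call and 8 changed direction. RLE size factors changed no call in the 6 comparisons. The 8 changes of direction came from leaving out a library: Zfp423 ran from -1.52 to 0.14 and Cebpa from -0.14 to 0.3 (also -0.01) for BMP2 plus MEK inhibitor against MEK inhibitor, Zfp423 from -1.32 to 0.88 (also 0.39) for the difference of responses, Stat5a from -0.09 to 0 for the MEK inhibitor, Cebpb from -0.08 to 0.23 for rosiglitazone and Rxra from -0.1 to 0.04 for MTΔECad against Py2T-LT controls. Among the pairs added after seeing the data, Cebpd in MTΔECad controls against BMP2 plus MEK inhibitor (-0.05) ran from -0.14 to 0.07 (also 0.01), and Srebf1 in rosiglitazone against MEK inhibitor (-0.06) from -0.2 to 0.09 (also 0.03). None of these was called with all libraries. The cause was not tested.

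Leaving out a library changed how many of the 9 genes were called in each comparison except that between controls. For the MEK inhibitor fewer were called whichever library was left out. The number called over all genes tested mostly fell as well, but not for the MEK inhibitor without Py2T-LT control replicate 1. Whether such losses are particular to the 9 was not tested. The log2 fold change of Pparg ran from 1.71 to 2.04 for the MEK inhibitor, 2.67 to 2.99 for BMP2 plus inhibitor and -0.14 to -0.1 for rosiglitazone. A group left with 1 library was assumed to vary like the others. With the replicate number as a block, Cebpb passed on adding BMP2 to the inhibitor (0.35; edgeR adjusted p = 0.027) and Ebf1 with rosiglitazone (-0.22; edgeR adjusted p = 0.049), and no other call of the 6 comparisons changed. Deviations of same-numbered libraries correlated at -0.106 to 0.1 over the 10 pairs of groups, which does not establish a pairing, and no label says that the number marks an experiment. Zfp423 in BMP2 plus inhibitor against Py2T-LT control gave no value with only the compared groups fitted, as it did not pass the count filter there. Depth limits Zfp423, Ppara and Ebf2, whose Py2T-LT control levels rest on 13, 0 and 1 counts.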
